A study of Homo sapiens with 24 samples.

Results

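The clustered histone genes of the human genome were followed in U87 MG cells, an established human glioblastoma line, after proton irradiation (PT) and after PT combined with Si306, an inhibitor of the tyrosine kinase SRC. Members were all gene probes of the array whose gene name begins with HIST1H, HIST2H, HIST3H or HIST4H. This gave 83 probes for 65 gene names, of 41000 probes for 30982 names on the array. A probe was kept when its spot was well above background in either dye on both arrays of at least 1 configuration, and 74 probes for 62 genes passed, of 30329 probes for 22859 names in all. The 62 genes were 5 of class H1, 14 of H2A, 17 of H2B, 13 of H3 and 13 of H4. HIST1H1T, HIST1H2AA and HIST1H4G had no kept probe.

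Cells were collected 24 h after irradiation, and 4 configurations were compared on Agilent 2-colour arrays. U87 2 Gy and U87 10 Gy were each set against untreated U87 cells. The configuration U87 Si306 + 2 Gy, and likewise U87 Si306 + 10 Gy, received 10 µM Si306 and the named dose. Its control was irradiated as well, with that dose and no Si306. The treated RNA carried Cy5 and the control RNA Cy3 on every array, without a dye swap. Each configuration had 2 arrays with 3 scans each, and the labels call the scans biological replicates. Whether the 2 arrays of a configuration carried RNA of separate cultures is not given in the sources used here, so the p-values measure the spread between arrays, which may be technical. All results come from 1 cell line, and no array held cells given Si306 without protons.

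The main histones of chromatin are encoded by small genes, most without introns, that lie together in clusters. H2A, H2B, H3 and H4 form the nucleosome core and H1 binds the DNA between nucleosomes. Most of these genes are transcribed in S phase, when new DNA has to be packed, and their mRNAs end in a conserved stem-loop that is bound by SLBP instead of a poly(A) tail. Some of them can also give polyadenylated transcripts. The labelling protocol made double-stranded cDNA and amplified it with T7 polymerase, and its primer is not given in the sources used here. Since these are bulk samples, fewer cells in S phase and less histone mRNA per cell cannot be told apart.

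In hg17, the build of the array, 51 of the 62 measured genes lay in the HIST1 cluster on chromosome 6 between 25835161 and 27969626. The HIST2 and HIST3 groups on chromosome 1 held 7 and 3 of them, and HIST4H4 lay alone on chromosome 12. The coding sequences within a class are nearly alike, so the probes were compared with each other first. A stretch of at least 20 identical bases with the probe of another gene of the class was found for 0 of 5 H1, 6 of 14 H2A, 11 of 17 H2B, 3 of 13 H3 and 6 of 13 H4 genes. The longest identical stretch between probes of different classes was 11 bases. A value for 1 gene of a class may therefore hold signal of its close copies.

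The following windows of H4 probes are shown because the genes with them behaved as sets in the results. They run 5′ to 3′ along the mRNA over the end of the coding sequence, and capitals mark bases that differ from the first line.
HIST1H4C: tatggcttcggcggctgaatctaagaatac
HIST1H4B: taCggcttcggcggTtAaTCTtTTCGTCaG
HIST1H4D: tatggcttcggcggctgaGCTtaCCTCtac
HIST1H4L: tatggcttTggcggctgaGtGtTTTaCtTA
HIST1H4J: taCggTttcggTggTtgaGCGtCCCTTtCT
HIST1H4K: taCggTttcggTggTtgaGCGtCCCTTtCT
The probe of HIST1H4C lies at chr6:26212447-26212506 (hg17, plus strand) and that of HIST1H4K at chr6:27906933-27906992 (minus strand). The windows of HIST1H4J and HIST1H4K were identical, so these names cannot be told apart over these bases. A separate set of H4 probes lies within the coding sequence.
HIST1H4H: gttctgaaggtgttcctggagaacgt
HIST1H4F: gttctTaaggtgttcctggagaaTgt
HIST1H4I: gtGTtgaaggtgttcctggagaacgt
HIST2H4A: gtGctgaaggtgttcctggagaaTgt
Each of the last 3 differed from the first at 2 of the 26 bases.

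The H2A windows below cover the last codons of the gene and are shown because probes that differ at few bases went opposite ways with Si306. Capitals again mark differences from the first line.
HIST1H2AD: ctgagagtcaccacaaggccaagggcaa
HIST1H2AK: ctgagagCcaccacaaggccaagggcaa
HIST1H2AH: ctgagagCcaccaTaaggccaaATAAGG
HIST1H2AE: cGgagagCcaccaTaaggccaagggcaa
HIST1H2AM: ctgagagCcaccacaaAgcTaagggcaa
The probes of HIST1H2AD (chr6:26307062-26307121, minus strand) and HIST1H2AK (chr6:27913708-27913767, minus strand) differed at 1 of these 28 bases, and HIST1H2AE (chr6:26325533-26325592, plus strand) differed from HIST1H2AD at 3. The last line is a second probe of HIST1H2AM.

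With loess normalization the histone genes, taken over all 62, changed little on average and in both directions. A log2 fold change here is the mean over the arrays of log2(Cy5/Cy3), and a gene was called when its adjusted p in limma, corrected over all genes of the array, was under 0.05. In U87 2 Gy 20 genes rose and 10 fell, beside 32.1% and 24.9% of all genes tested. In U87 10 Gy 30 rose and 6 fell, beside 31.1% and 26.3%. With Si306 at 2 Gy 30 rose and 20 fell, beside 38.8% and 28.1%, and with Si306 at 10 Gy 20 rose and 28 fell, beside 35.1% and 27.1%. With scans centred on the median instead, most members rose in each configuration. The shares of all genes that rose and fell were then 59.4% and 25.7%, 57.3% and 24.0%, 63.3% and 25.7%, and 59.4% and 21.5%. Under loess the medians of the members were 0.02, 0.08, 0.06 and -0.02 in the 4 configurations, beside medians over all genes of 0.02, 0.02, 0.04 and 0.03. Under loess no member passed a 2-fold change with its brightest probe, and the most extreme value was -0.95. With centring on the median HIST1H4J and HIST1H4K gave 1.45 and 1.44 with Si306 at 2 Gy, where all genes had a median of 0.42. On that scale HIST1H4C gave 1.11 at 10 Gy and HIST3H3 1.05 at 2 Gy, beside medians of all genes of 0.22 and 0.27. The 2 arrays of a configuration differed by a median of 0.05, 0.06, 0.05 and 0.04 over the members, and most called changes were larger than this spread. Each dye was well above background on some or all arrays of the configuration for 58, 60, 54 and 53 of the 62 members.

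**Figure D1:**
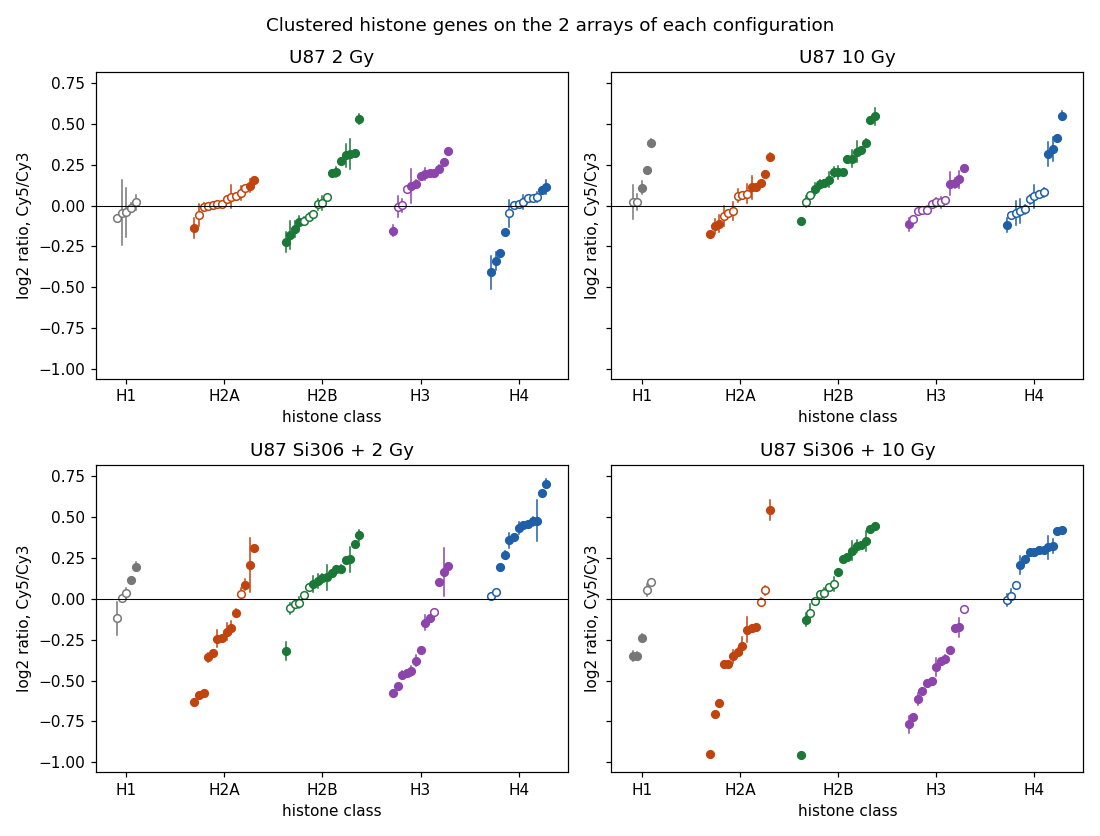
Log2 ratio (Cy5/Cy3) of each of the 62 histone genes, sorted within its class, in the 4 configurations. A circle is the mean of the 2 arrays and the vertical line joins the 2 arrays, with filled circles for genes called at adjusted p under 0.05. With Si306 11 and 10 of 13 H4 genes rose, while 10 and 11 of 14 H2A genes and 9 and 12 of 13 H3 genes fell under loess normalization.

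Under loess the classes parted from each other with Si306. H4 genes rose in 11 of 13 cases at 2 Gy (median 0.43) and in 10 of 13 at 10 Gy (median 0.29), and none fell. H2B genes rose in 11 of 17 and 9 of 17 cases, with medians of 0.13 and 0.16. H3 genes fell in 9 of 13 and 12 of 13 cases, with medians of -0.31 and -0.41, and H2A genes in 10 of 14 and 11 of 14, with medians of -0.22 and -0.31. Of all genes 38.8% rose and 28.1% fell at 2 Gy, and 35.1% and 27.1% at 10 Gy. With normexp fitted on all spots the H4 genes that rose numbered 9 and 6 and the H2B genes 4 and 5, while 7 and 8 H3 genes and 6 and 6 H2A genes fell, beside 15.4% rising and 10.2% falling of all genes at 2 Gy and 10.2% and 5.67% at 10 Gy. The direction of H2A and H3 depended on how the arrays were centred. When each scan was centred on its median instead of by loess, the median of all genes itself moved to 0.42 at Si306 + 2 Gy and 0.26 at Si306 + 10 Gy. On that scale 12 H2A genes rose and 2 fell at 2 Gy, and 12 H3 genes rose and 1 fell. Their class medians were then 0.58 (H2A) and 0.55 (H3), above the 0.42 of all genes, while at 10 Gy they were 0.22 and 0.09, below the 0.26 of all genes. In a model of the separate dyes, whose dye effect takes in any difference between slides, the H2A medians were 1.11 and 0.98 and the H3 medians -0.40 and -0.54 at the 2 doses. The medians of H2B and H4 under median centring were 0.88 and 1.14 at 2 Gy and 0.65 and 0.76 at 10 Gy. H4 and H2B thus lay above H2A and H3 with Si306 under both scalings, and the medians of H4 and H2B stayed above 0 in each of 23 alternative settings.

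Slide went together with Si306, since PT alone was hybridized on 1 slide and both Si306 configurations on the other. The RNA labelled PT alone was on both, in Cy5 on the first slide and in Cy3 on the second, and its level could be compared directly. Over all genes the second slide minus the first had a median of -0.05 at 2 Gy and -0.06 at 10 Gy on the log2 scale. H2B lay higher on the second slide for 17 of 17 genes at 2 Gy and 16 of 17 at 10 Gy, with medians of 1.06 and 0.93. H2A (1.07 and 1.06) and H4 (0.91 and 0.85) also lay higher, while H3 (-0.14 and 0.00) did not and H1 (-0.35 and -0.81) lay lower. HIST1H2AB stood 3.59 higher at 2 Gy and 3.64 higher at 10 Gy, HIST1H2AH 3.45 and 4.03, and HIST1H2AK 3.04 and 3.23. Dye and slide cannot be told apart in these values. For H2A, H2B and H4 the class medians of these differences exceeded in size the class medians with Si306 under loess. The values of HIST1H2AB, HIST1H2AH and HIST1H2AK also exceeded their changes with Si306. Those changes are ratios within an array, and the part of dye and slide in them was not tested.

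**Figure D2:**
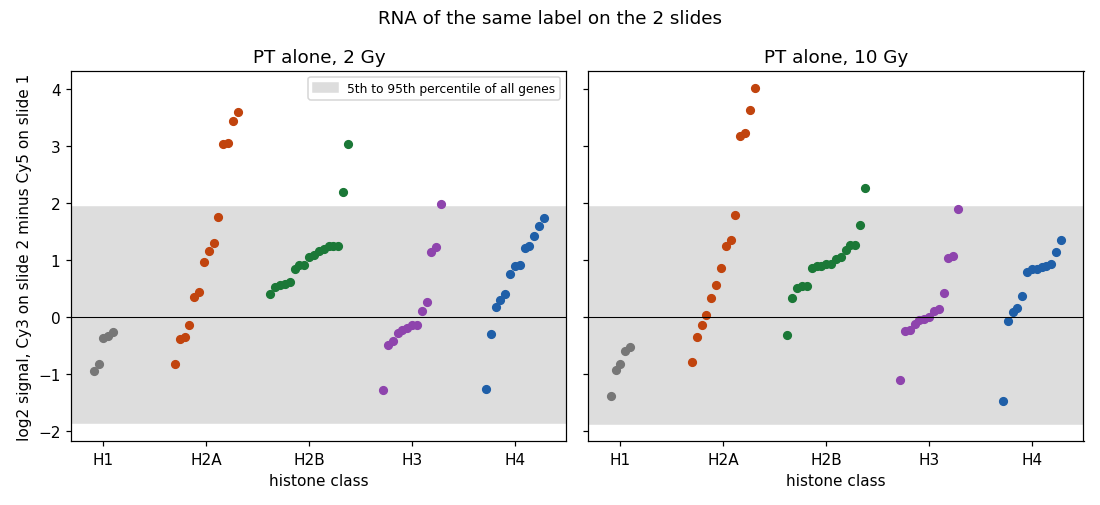
Difference in log2 signal between Cy3 on the second slide and Cy5 on the first for RNA labelled PT alone at 2 Gy (left) and 10 Gy (right), 1 point for each histone gene. The grey band spans the 5th to 95th percentile of all genes (-1.84 to 1.93 at 2 Gy), and the H2B genes sit above 0 with 1 exception at 10 Gy.

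H4, a highly conserved core histone, held 4 genes with a wide contrast between the proton doses, while the class median of the difference was 0.03, below that of H2B (0.12) and H1 (0.12). In PT alone 2 of 13 H4 genes rose and 4 fell at 2 Gy, beside 32.1% and 24.9% of all genes. At 10 Gy 4 rose and 1 fell, beside 31.1% and 26.3%. In the test of the difference 4 were higher at 10 Gy and 2 lower (HIST1H4F and HIST2H4A), beside 9.86% and 11.1%. The 4 that fell at 2 Gy and rose at 10 Gy were HIST1H4B, HIST1H4C, HIST1H4D and HIST1H4L. Their probes make up the first lines of the H4 windows above. HIST1H4C gave -0.51 and -0.31 on the 2 arrays of U87 2 Gy, 0.52 and 0.58 at 10 Gy, 0.20 and 0.19 with Si306 at 2 Gy, and 0.15 and 0.26 with Si306 at 10 Gy. HIST1H4L gave -0.39 and -0.29, 0.42 and 0.40, 0.29 and 0.25, and 0.26 and 0.23 in the same order. HIST1H4B gave -0.27 and -0.31, 0.42 and 0.27, 0.37 and 0.38, and 0.31 and 0.29. All arrays at 2 Gy lay below 0 and all others above it. HIST1H4D followed at -0.17 and -0.15, 0.24 and 0.39, 0.31 and 0.40, and 0.30 on the single array that measured it in U87 Si306 + 10 Gy. The fold change of HIST1H4C was 0.754 at 2 Gy (log2 -0.41 ± 0.05, SE, n = 2 arrays, adjusted p = 2.78e-05) and 1.46 at 10 Gy (log2 0.55 ± 0.05, adjusted p = 2.50e-06). The difference between the doses was 0.96 ± 0.07 for HIST1H4C (adjusted p = 1.87e-05), 0.75 for HIST1H4L, 0.64 for HIST1H4B and 0.48 for HIST1H4D. Centring on the median instead of loess turned the 2 Gy values of HIST1H4B, HIST1H4C and HIST1H4L to 0.24, 0.26 and 0.27, close to the 0.27 of all genes on that scale, so their fall at 2 Gy rests on loess. On the same scale HIST1H4C and HIST1H4L gave 1.11 and 0.90 at 10 Gy, where all genes had a median of 0.22. A model of the separate dyes also put the 3 genes above 0 at 2 Gy, at 0.95, 0.99 and 1.03.

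The H4 genes with inner coding probes moved otherwise. HIST1H4H gave 0.01 and 0.00 at 2 Gy, -0.05 and 0.01 at 10 Gy, 0.46 and 0.47 with Si306 at 2 Gy, and 0.29 and 0.28 with Si306 at 10 Gy. HIST1H4I gave 0.16 and 0.07, 0.01 and 0.07, 0.45 and 0.46, and 0.38 and 0.25. HIST1H4F gave 0.06 and 0.02, -0.16 and -0.08, 0.50 and 0.44, and 0.36 and 0.28. HIST2H4A of chromosome 1 was much the same at 0.10 and 0.09, -0.05 and -0.07, 0.39 and 0.47, and 0.28 and 0.30. These genes stayed within 0.16 of 0 in PT alone, where HIST1H4I and HIST2H4A passed the test at 2 Gy and HIST1H4F at 10 Gy, and were above 0 on every array with Si306. HIST1H4J and HIST1H4K, whose probes lie over the end of the coding sequence, rose the most with Si306 at 2 Gy. HIST1H4K gave 0.73 and 0.68 at that dose and 0.42 and 0.43 at 10 Gy, after 0.07 and -0.02 and then 0.13 and -0.01 in PT alone. HIST1H4J gave 0.64 and 0.65, then 0.40 and 0.43, after 0.02 and 0.09 and then -0.11 and 0.04. The rise of HIST1H4K with Si306 was smaller at 10 Gy than at 2 Gy by 0.28 ± 0.06 (adjusted p = 0.00616).

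HIST1H4A was dim. With Si306 at 2 Gy its arrays gave 0.60 and 0.35, a mean change of 1.39-fold, where only 1 of the RNAs was well above background. With Si306 at 10 Gy it gave -0.04 and 0.03. HIST1H4E (0.01 and 0.04 with Si306 at 2 Gy) and HIST4H4 were not well above background in either dye with Si306 and were called in no configuration, as was HIST1H1B.

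**Figure D3:**
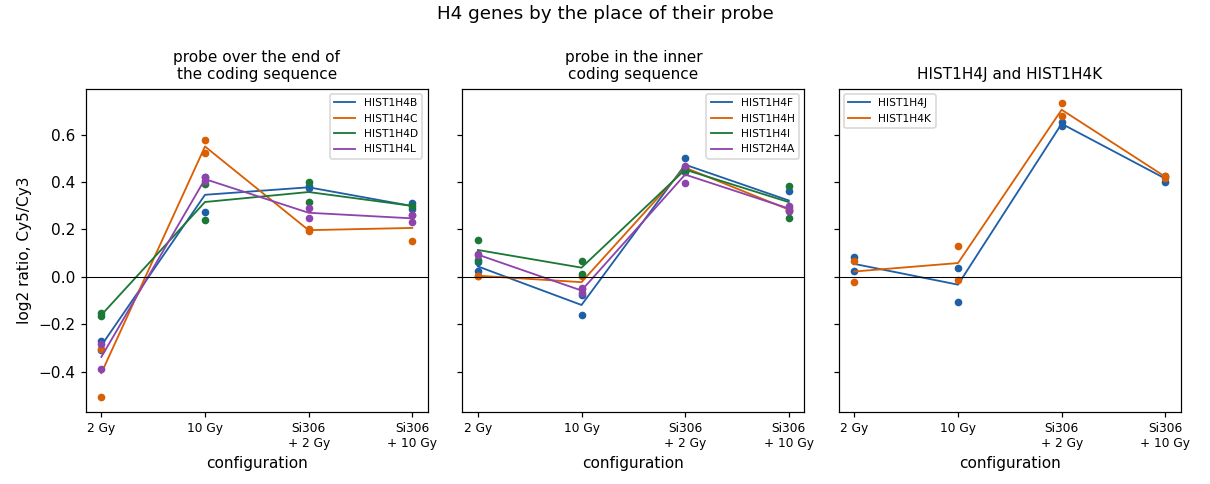
Log2 ratio (Cy5/Cy3) of 10 H4 genes in the 4 configurations. The left and middle panels hold probes over the end and in the inner part of the coding sequence. HIST1H4J and HIST1H4K are set apart, although their probes also lie over the end of the coding sequence. Points are single arrays and lines join the means. The 4 genes on the left lie below 0 at 2 Gy and above 0 at 10 Gy, whereas the 6 others stay near 0 in PT alone and rise with Si306.

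H2B, the partner of H2A in the nucleosome core, held the 4 members that rose in all configurations. In U87 2 Gy 7 of 17 rose and 4 fell (median 0.02), near the 32.1% and 24.9% of all genes, and in U87 10 Gy 14 rose and 1 fell (median 0.21), beside 31.1% and 26.3%. At 2 Gy 15 rose and 1 fell under median centring, 15 of 16 rose in the model of the separate dyes (39.1% of all genes rose and 42.0% fell), and 0 rose and 0 fell with normexp fitted on all spots (8.72% and 4.30%). The 14 became 9 without U87 10 Gy array 2 and 2 with normexp fitted on all spots, and the 4 that fell at 2 Gy became 1 without U87 2 Gy array 1. HIST1H2BN gave 0.50 and 0.56 at 2 Gy, 0.53 and 0.52 at 10 Gy, 0.21 and 0.16 with Si306 at 2 Gy, and 0.35 and 0.24 with Si306 at 10 Gy. HIST1H2BC gave 0.38 and 0.24, 0.34 and 0.24, 0.42 and 0.35, and 0.42 and 0.43. HIST1H2BG gave 0.41 and 0.22, 0.36 and 0.41, 0.17 and 0.32, and 0.41 and 0.29. HIST1H2BJ gave 0.27 and 0.28, 0.27 and 0.30, 0.36 and 0.32, and 0.43 and 0.46. These 4 were the members called as higher in all 4 configurations (6.45% of members, beside 6.52% of all genes), and all their arrays lay above 0. HIST1H2BN at 10 Gy stood 1.44-fold above untreated cells (adjusted p = 5.75e-07). Its probe shared 41 identical bases with that of HIST2H2BE, which gave 0.32 on its single array at 2 Gy and 0.27 and 0.39 at 10 Gy.

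Under loess other H2B genes turned with the dose. HIST1H2BB gave -0.29 and -0.16 at 2 Gy and 0.07 and 0.14 at 10 Gy, and its 2 Gy value was 0.23 under median centring and 0.30 in the model of the separate dyes. HIST1H2BE gave -0.19 and -0.09, 0.12 and 0.16, 0.19 and 0.18, and 0.28 and 0.24 in the 4 configurations. HIST1H2BK, which is known for polyadenylated transcripts, gave -0.27 and -0.09, 0.17 and 0.23, -0.26 and -0.38, and -0.09 and -0.17. It was the only H2B gene that fell in both Si306 configurations, and with Si306 at 2 Gy its value became 0.59 under median centring and 1.63 in the model of the separate dyes. HIST1H2BA, a testis form, was at the edge of detection and gave -0.09 and -0.10 at 10 Gy. Of the 17 genes, 6 were higher at 10 Gy than at 2 Gy in PT alone and 1 was lower, beside 9.86% and 11.1% of all genes. With Si306 the same contrast gave 1 higher and 1 lower, at or below the 10.2% and 12.6% of all genes.

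The lower one was HIST1H2BD, and its value came from an unusual probe. Its brightest probe has hg17 coordinates on the strand opposite to the gene, and a second probe of HIST3H2BB runs against its gene as well. Their windows are shown with the reverse complement of the sense probe of HIST1H2BJ over the same bases, and capitals mark differences from the first line.
HIST1H2BD: aattcatgatccccattgccttggaagaga
HIST3H2BB: aGttcatgatGcccatGgccttggaCgaga
HIST1H2BJ: aattcatgatGcccatGgccttggaCgaAa
The probes against HIST1H2BD (chr6:26266524-26266583, minus strand) and HIST3H2BB (chr1:224952701-224952760, minus strand) matched at 42 of 48 overlapping bases although their genes lie on different chromosomes. HIST1H2BD gave -0.14 and -0.06 at 2 Gy, 0.60 and 0.49 at 10 Gy, -0.09 and -0.02 with Si306 at 2 Gy, and -0.94 and -0.97 with Si306 at 10 Gy. The opposite-strand probe of HIST3H2BB gave means of 0.08, 0.70, -0.13 and -0.97 in the same order. Both were thus high at 10 Gy alone and low where Si306 was added to 10 Gy. The second probe of HIST1H2BD, on the strand of the gene, instead gave 0.31, 0.45, 0.28 and 0.33, near the 0.28, 0.29, 0.34 and 0.45 of HIST1H2BJ. Without the opposite-strand probes HIST1H2BD therefore rose with Si306 at 10 Gy. What RNA the opposite-strand probes detect was not tested.

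Of 14 H2A genes 2 rose and 1 fell at 2 Gy in PT alone (median 0.02), beside 32.1% and 24.9% of all genes, and 5 rose and 3 fell at 10 Gy (median 0.06), near the 31.1% and 26.3% of all genes. In the limma test of the difference between the doses 0 of 14 passed the adjusted threshold and 4 had an unadjusted p under 0.05. Without either array of U87 10 Gy, 2 rose at 10 Gy. Under median centring 12 rose and 2 fell at 2 Gy and 12 rose and 1 fell at 10 Gy, and in the model of the separate dyes 9 of 12 rose and 3 fell at both doses (median 1.34), where 39.1% of all genes rose at each dose and 42.0% and 41.8% fell. HIST1H2AD gave 0.05 and 0.03 at 2 Gy, 0.10 and 0.02 at 10 Gy, -0.56 and -0.59 with Si306 at 2 Gy, and -0.94 and -0.95 with Si306 at 10 Gy. HIST1H2AH gave 0.03 and -0.01, 0.00 and -0.13, -0.65 and -0.61, and -0.71 and -0.69. HIST1H2AK gave -0.13 and 0.01, -0.06 and -0.16, -0.58 and -0.60, and -0.63 and -0.64. These 3 genes lay near 0 in PT alone and were the lowest H2A genes with Si306. The HIST1H2AH window differed from that of HIST1H2AD at 8 bases, more than the 3 of HIST1H2AE. The fold change of HIST1H2AD with Si306 was 0.670 at 2 Gy and 0.518 at 10 Gy (log2 -0.95 ± 0.03, SE, n = 2 arrays, adjusted p = 8.39e-09), and the doses differed by -0.37 ± 0.05 (adjusted p = 0.000397). At 2 Gy the falls of HIST1H2AD, HIST1H2AH and HIST1H2AK turned to 0.28, 0.37 and 0.46 when scans were centred on the median, against 0.42 for all genes on that scale. In the model of the separate dyes HIST1H2AH and HIST1H2AK stood at 3.06 and 2.54 there.

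HIST1H2AE went the other way. It gave -0.01 and 0.03 at 2 Gy, -0.08 and -0.17 at 10 Gy, 0.30 and 0.32 with Si306 at 2 Gy, and 0.60 and 0.48 with Si306 at 10 Gy, and was the only H2A gene called as higher in both Si306 configurations. The second probe of HIST1H2AM, which differs from the HIST1H2AD window at 3 of 28 bases, gave 0.62 and 0.13 with Si306. Its first probe gave 0.00 and 0.06 at 2 Gy and -0.27 and -0.11 at 10 Gy with Si306, and the probes were called in opposite directions at 10 Gy. HIST1H2AB gave 0.08 and 0.16, 0.04 and 0.18, -0.35 and -0.32, and -0.34 and -0.23. HIST2H2AB gave 0.16 on 1 array at 2 Gy, then 0.27 and 0.32, -0.14 and -0.21, and -0.20 and -0.16. With these probes both rose with PT alone and fell with Si306. The second probe of HIST2H2AB was called the other way at 2 Gy (-0.13) and with Si306 at 2 Gy (0.38), and the mean of its probes at 2 Gy was -0.064. HIST1H2AL was the only member called as lower in all 4 configurations (1.61% of members, beside 4.73% of all genes). It gave -0.07 and -0.20, -0.19 and -0.15, -0.25 and -0.15, and -0.19 and -0.16, but with Si306 it was not well above background in either dye. The second probe of HIST2H2AA3 rose by 0.82 at 2 Gy and 1.06 at 10 Gy, where the other probe of that gene gave 0.01 and -0.04.

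H3, the histone whose tail carries many regulatory marks, depended on the centring for its direction with Si306, as given above. Under loess 9 of 13 H3 genes rose and 1 fell in U87 2 Gy (median 0.18), beside 32.1% and 24.9% of all genes. In U87 10 Gy 4 rose and 1 fell (median 0.02), a share of rising genes near the 31.1% of all genes, and 2 rose without U87 10 Gy array 2. At 2 Gy 11 rose and 0 fell under median centring, 6 and 3 in the model of the separate dyes, and 5 and 0 with normexp fitted on all spots, beside 59.4% and 25.7%, 39.1% and 42.0%, and 8.72% and 4.30% of all genes. At 10 Gy these settings gave 12 and 0, 5 and 5, and 2 and 0, beside 57.3% and 24.0%, 39.1% and 41.8%, and 8.71% and 5.70%. The median at 2 Gy was 0.74 under median centring, beside 0.27 for all genes. HIST3H3, known as a testis form, gave 0.33 and 0.33 at 2 Gy, 0.10 and 0.17 at 10 Gy, -0.44 and -0.49 with Si306 at 2 Gy, and -0.51 and -0.52 with Si306 at 10 Gy. HIST1H3A gave 0.25 and 0.28, 0.23 and 0.23, -0.32 and -0.30, and -0.36 and -0.40. HIST1H3E gave 0.20 and 0.20, 0.11 and 0.21, -0.41 and -0.34, and -0.47 and -0.36. These 3 genes were above 0 on every array of PT alone and below 0 on every array with Si306. HIST1H3G gave 0.11 and 0.16, -0.15 and -0.07, -0.58 and -0.57, and -0.82 and -0.72. HIST2H3A gave 0.15 and 0.23, -0.06 and -0.11, -0.47 and -0.41, and -0.74 and -0.70. HIST1H3G had the lowest H3 values in both Si306 configurations, with fold changes of 0.672 and 0.587 (adjusted p = 2.76e-07 and 6.03e-08), and its value at 2 Gy turned to 0.27 under median centring.

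A pair of H3 genes were called in opposite directions by dose with Si306. HIST1H3F gave -0.19 and -0.12, 0.05 and -0.01, 0.19 and 0.21, and -0.12 and -0.23, and HIST1H3J 0.25 and 0.20, 0.20 and 0.06, 0.11 and 0.10, and -0.18 and -0.18. HIST1H3I gave -0.07 and -0.05 with Si306 at 10 Gy, where only 1 of the dyes was well above background. In PT alone 5 H3 genes were lower at 10 Gy than at 2 Gy and 1 was higher, beside 11.1% and 9.86% of all genes. With Si306 7 were lower and 0 higher, beside 12.6% and 10.2%. The probes of HIST1H3B, which share 47 bases, gave -0.14 and 0.81 with Si306 at 2 Gy and were called in opposite directions. Among the 11 genes with more than 1 kept probe, probes were called in opposite directions for 3, 0, 4 and 2 genes in the 4 configurations.

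H1 genes, the linker histones, were too few for a class pattern. HIST1H1C gave 0.07 and -0.03 at 2 Gy, 0.20 and 0.24 at 10 Gy, 0.02 and -0.01 with Si306 at 2 Gy, and -0.37 and -0.33 with Si306 at 10 Gy. HIST1H1D gave -0.04 and 0.01, 0.15 and 0.07, 0.17 and 0.23, and -0.26 and -0.22. HIST1H1E gave -0.09 and -0.06, -0.02 and 0.07, 0.11 and 0.12, and -0.38 and -0.32. These 3 fell where Si306 was added to 10 Gy, and each was lower there than at 2 Gy, by -0.35, -0.44 and -0.46 (adjusted p = 0.000816, 0.000235 and 0.000156). Under median centring HIST1H1E stood at 0.013 with Si306 at 10 Gy. There 1 H1 gene rose and 2 fell, and HIST1H1A (-0.29) was among those that fell. At most 1 of HIST1H1C, HIST1H1D and HIST1H1E thus still fell on that scale. In the model of the separate dyes all 5 H1 genes fell in each configuration, where 40.2% to 42.1% of all genes fell. HIST1H1A was then -0.59 at 10 Gy. Under loess HIST1H1A gave -0.24 and 0.16 at 2 Gy, arrays that lay on both sides of 0, and 0.37 and 0.41 at 10 Gy. With Si306 at 10 Gy it gave 0.10 and 0.10, not well above background. HIST1H1B gave -0.19 and 0.11, -0.08 and 0.12, -0.22 and -0.02, and 0.02 and 0.09, so its arrays lay on both sides of 0 in PT alone.

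Counted over all classes, 13 members were higher at 10 Gy than at 2 Gy in PT alone and 8 were lower, beside 9.86% and 11.1% of all genes tested. With Si306 added, 2 were higher and 19 lower, beside 10.2% and 12.6%. Under median centring these were 4 and 44, beside 16.2% and 38.9% of all genes, and with normexp fitted on all spots 0 and 1. The count of 8 fell to between 2 and 6 when single arrays were left out, the lowest value without U87 10 Gy array 1. The 19 became 12 without U87 Si306 + 10 Gy array 1. The 10 that fell at 2 Gy became 6 without U87 2 Gy array 1, and the 6 that fell at 10 Gy became 3 without either array of that configuration. Of the 62 members, 18 (29.0%) were called in all 4 configurations and 3 (4.84%) in none, beside 23.8% and 8.53% of all genes.

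**Figure D4:**
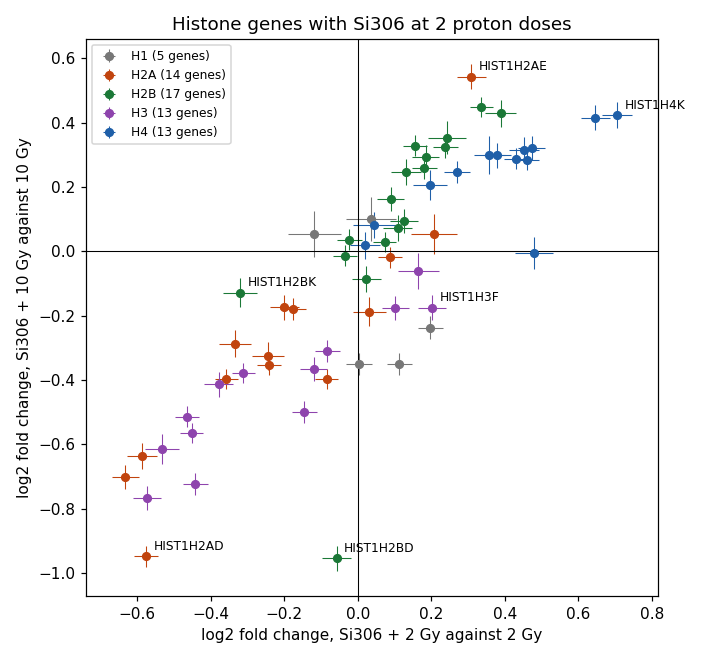
Log2 fold change with Si306 at 2 Gy (horizontal) against that at 10 Gy (vertical) for the 62 histone genes, coloured by class, with SE bars. Both axes are ratios to PT alone at the same dose. H4 genes lie at the upper right and most H2A and H3 genes at the lower left, with HIST1H2AE and HIST1H2BD apart from their classes. The side of 0 of H2A and H3 holds for loess.

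Many H2A and H2B genes start back to back and share a short stretch of DNA between them. Among 10 such pairs, the genes were both called in opposite directions in 0 and 2 pairs after protons alone at the lower and the higher dose, and in 5 and 4 pairs with Si306. Both rose in 0, 3, 2 and 1 pairs and both fell in 0, 0, 1 and 1. Under median centring, a setting run on the pairs after seeing the data, opposite calls were found in 1, 0, 1 and 2 pairs. Both genes rose in 9, 9, 9 and 6, so fewer pairs were opposite with Si306 than under loess. With Si306 38.8% of all genes rose and 28.1% fell at 2 Gy, and 35.1% and 27.1% at 10 Gy. HIST1H2AK and HIST1H2BN gave -0.59 and 0.19 with Si306 at 2 Gy and -0.64 and 0.29 at 10 Gy. HIST1H2AD and HIST1H2BF gave -0.58 and 0.09, then -0.95 and 0.16. HIST1H2AE and HIST1H2BG were the pair that rose together at both doses. At 2 Gy the negative values of HIST1H2AK and HIST1H2AD turned under median centring. HIST1H2AD at 10 Gy stayed negative there (-0.36) and in the model of the separate dyes (-0.43), and HIST1H2AE stayed positive under both at each dose.

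Of the shared stretches, that between HIST1H2BJ and HIST1H2AG, at chr6:27132796-27133042 of GRCh38.p14 on the plus strand (RefSeq), is shown with its promoter motifs in capitals. They are the octamer ATTTGCAT, CCAAT and TATAAA, searched on both strands.
HIST1H2BJ to HIST1H2AG: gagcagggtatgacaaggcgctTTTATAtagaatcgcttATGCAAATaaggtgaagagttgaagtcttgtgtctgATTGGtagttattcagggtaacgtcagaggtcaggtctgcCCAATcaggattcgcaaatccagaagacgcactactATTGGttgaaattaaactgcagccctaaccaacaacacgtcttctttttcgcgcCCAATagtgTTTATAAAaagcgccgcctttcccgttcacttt
That between HIST1H2AK and HIST1H2BN, at chr6:27838376-27838568, had CCAAT motifs but neither of the others.
HIST1H2AK to HIST1H2BN: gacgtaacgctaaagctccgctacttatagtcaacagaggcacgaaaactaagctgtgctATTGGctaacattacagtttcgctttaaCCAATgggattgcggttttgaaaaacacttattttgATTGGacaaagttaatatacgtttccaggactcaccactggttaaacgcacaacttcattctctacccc
The first stretch of 247 bases held 1 octamer, 4 CCAAT and 3 TATAAA matches, and the second of 193 bases held 0, 3 and 0. HIST1H2BJ rose with Si306 at both doses while HIST1H2AG fell (-0.29 and -0.19 at 2 Gy, -0.35 and -0.30 at 10 Gy). A motif match describes the letters in the window and not a bound site.

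**Figure D5:**
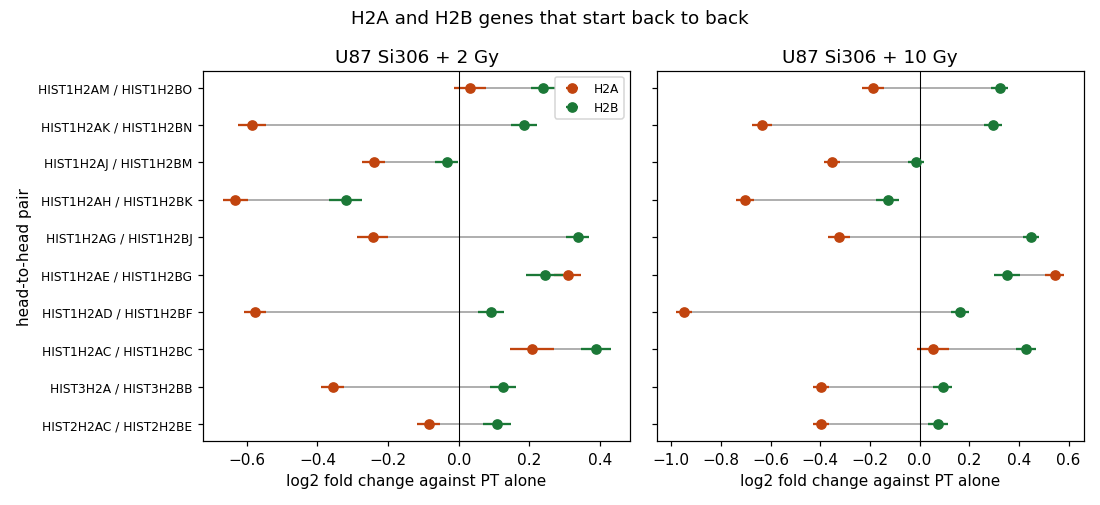
Log2 fold change with Si306 of the H2A and the H2B gene of 10 head-to-head pairs, with SE bars, at 2 Gy (left) and 10 Gy (right). A grey line joins the genes of a pair. In 5 pairs at 2 Gy and 4 at 10 Gy both genes were called and lay on opposite sides of 0 under loess, against 1 and 2 under median centring.

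Promoter windows of 300 bases, most of them upstream of the start, were found in RefSeq (GRCh38.p14) for 5 H1, 13 H2A, 17 H2B, 11 H3 and 11 H4 genes. The octamer was in 76.9% of H2A and 76.5% of H2B promoters, in 1 of 11 H3 promoters and in no H1 or H4 promoter, beside 1.77% of 35116 promoters in all. CCAAT was in 100% of H1, H2A, H2B and H3 promoters and in 27.3% of H4 promoters, beside 34.6% of all. TATAAA was in 54.5% to 72.7% of the promoters of each class, beside 11.5%. H2A and H2B thus had like motif shares. Whether the motifs bear on the changes with Si306 was not tested.

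Genes that serve histone supply were read from lists of known members. The counts below stand beside the shares of all genes that rose and fell, 32.1% and 24.9% at 2 Gy, 31.1% and 26.3% at 10 Gy, 38.8% and 28.1% with Si306 at 2 Gy, and 35.1% and 27.1% with Si306 at 10 Gy. Of 22 genes for transcription and 3′ processing of histone mRNA, 7 rose and 7 fell at 2 Gy, 6 and 6 at 10 Gy, 4 and 11 with Si306 at 2 Gy, and 8 and 12 with Si306 at 10 Gy. SLBP, which binds the stem-loop, was lower on every array, at -0.46 and -0.59, -0.47 and -0.54, -0.44 and -0.45, and -0.44 and -0.45. NPAT, the activator of histone transcription in S phase, gave 0.19 and 0.17 with Si306 and passed the test in both. LSM11, a part of the U7 particle that cuts the mRNA end, rose by 0.66 and 0.47 with Si306. Of 20 chaperone and deposition genes, 13 rose and 4 fell at 2 Gy, 11 and 2 at 10 Gy, 1 and 12 with Si306 at 2 Gy, and 3 and 10 with Si306 at 10 Gy. NASP, a chaperone of H3 and H4, rose by 0.50 and 0.67 in PT alone and gave -0.90 and -0.67 with Si306.

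Of 11 histone genes outside the clusters, which are made throughout the cell cycle or serve special places, 6 rose and 3 fell at 2 Gy, 5 and 4 at 10 Gy, 2 and 6 with Si306 at 2 Gy, and 2 and 8 with Si306 at 10 Gy. CENPA, the H3 form of centromeres, gave -0.94 at 2 Gy and -1.45 at 10 Gy. H3F3B, which encodes H3.3, gave -0.69 and -0.84 with Si306. All 19 S phase genes fell with Si306 at 2 Gy (median -0.42) and 17 of 19 at 10 Gy (median -0.35). In PT alone 9 rose and 6 fell at 2 Gy and 9 rose and 1 fell at 10 Gy, and 10 were higher at 10 Gy than at 2 Gy and 1 lower, beside 9.86% and 11.1% of all genes. RRM2, a subunit of ribonucleotide reductase, gave -0.93 and -0.89 with Si306. Under loess the S phase genes and the H4 genes thus moved opposite ways with Si306, and most H2A and H3 genes fell as the S phase genes did. As a check of irradiation, CDKN1A, the p53 target that stops the cycle, rose by 0.38 at 2 Gy and 1.19 at 10 Gy. MDM2, another p53 target and the other gene of that check, fell by 0.21 at 2 Gy and rose by 0.10 at 10 Gy. VIM, CD44, NES, SPARC, FN1 and GFAP were well above background on 8 of 8 arrays and PTPRC and CDH1 on 0. SOX2 reached 5 and OLIG2 4 arrays in the treated dye, and EPCAM, an epithelial marker, 7. The endothelial markers PECAM1 and CDH5 reached 4 and 3. Of 13 such markers 11 were tested, and 3, 3, 4 and 5 rose and 2, 3, 3 and 2 fell in the 4 configurations.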

How the data were processed

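RNA of U87 MG cells was hybridized to Agilent 2-colour arrays, and the authors deposited the Feature Extraction 9.5.3.1 output of 24 scans with spot intensity, background and flags in both dyes (decimal commas), together with a table of log10 ratios of Cy5 over Cy3. The study used GeneSpring and a 2-fold limit. Probe names and hg17 positions came from the deposited scanner files. The headers show 2 arrays per configuration with 3 scans each, although the labels number the scans as 6 replicates. Of the scans, 22 were used. The other 2 carried a label that did not match their array and did not enter.

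Scans were corrected with normexp (offset 50) on gene spots without outlier flags and normalized by loess (limma 3.58.1, R 4.3.3). Normexp was first fitted on all spots, where its background mean reached -1154 (median -554 over 44 fits, against 3.22 on gene spots). The fit on gene spots was taken as the main setting only after the calls of the all-spot fit had been seen. Spots, then scans of an array, were averaged, which gave log2 ratios of 8 arrays. A probe was kept when either dye was well above background in 66.7% or more of a configuration's arrays, and the brightest kept probe stood for a gene. One linear model gave the 4 means and the differences between doses, with moderated tests (lmFit, eBayes) and Benjamini-Hochberg adjustment over all genes. A call needed an adjusted p under 0.05. The number of arrays limits the precision.

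On simulated data 13 to 22 of 50 genes changed by 0.15 (log2) and 49 to 50 of 50 changed by 0.3 were recovered, with 9 to 14 false calls among 21218 genes. The simulated noise was independent between genes and arrays and held no dye or slide effect. These numbers therefore say nothing about calls that dye or slide may cause. Named genes were the 4 highest and 4 lowest of each configuration, the highest and lowest of each class and those called in all 4 configurations, with others added after their values were seen. The members and lists were chosen with earlier results of these data known. Alternatives were median centring, a separate-channel model, other background corrections, filters and probe choices, the scanner's and the deposited log10 ratios, a GC-content curve, scans as labelled with and without a replicate block, and leaving out each array. The all-spot fit, leaving out probes that run against their gene and asking for both dyes above background were added after seeing the data. Coding positions of probes were not checked against proteins, and only short windows are shown. Same-numbered samples did not deviate together (median correlation 0.00, 2 of 36 pairs over 0.1).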

Additional observations from a re-analysis of the deposited data

Results flagged for a closer look

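Several genes differed between the proton doses. In PT alone the log2 fold change at 10 Gy minus that at 2 Gy was 0.96 for HIST1H4C, 0.75 for HIST1H4L, 0.64 for HIST1H4B and 0.48 for HIST1H4D, and each passed the limma test of the difference. The same test found 0.65 for HIST1H2BD, 0.38 for HIST1H2BK, 0.33 for HIST1H2BB and 0.28 for HIST1H2BE, and -0.25 for HIST1H3G. With Si306 added, the effect at 10 Gy minus that at 2 Gy was -0.90 for HIST1H2BD (opposite-strand probe), -0.46 for HIST1H1E, -0.44 for HIST1H1D, -0.38 for HIST1H3F and -0.28 for HIST1H3J. Under loess the genes named were called on opposite sides of 0 at the 2 doses, other than HIST1H2BD with Si306. Under median centring HIST1H4B, HIST1H4C, HIST1H4L and HIST1H2BB stood at 0.24, 0.26, 0.27 and 0.23 at 2 Gy and HIST1H3G at 0.38 at 10 Gy. The sense probe of HIST1H2BD was above 0 at both doses of PT alone (0.31 and 0.45).

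Signal also appeared on probes that did not stand for their gene. The second probe of HIST2H2AA3 gave 1.06 in U87 10 Gy (1.09 and 1.04 on the arrays). The opposite-strand probe of HIST3H2BB gave -0.97 in U87 Si306 + 10 Gy (-0.91 and -1.03 on the arrays).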

How the results depend on the processing

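Of 1226 values of named genes under alternatives, 1120 kept direction and side of the threshold, 50 lost and 20 gained significance, and 36 reversed. Under median centring the members that rose numbered 50, 55, 54 and 39 in the 4 configurations, those that fell with Si306 8 and 12, those higher at 10 Gy than at 2 Gy in PT alone 8, and those higher and lower by dose with Si306 4 and 44. The separate-channel model gave 40 rising at 2 Gy, 14 falling at 10 Gy, 37 rising and 18 falling with Si306 at 10 Gy, and 3 lower at 10 Gy in PT alone, in a model that called 39.1% to 41.0% of all genes as rising and 40.2% to 42.1% as falling in the 4 configurations. Fitting normexp on all spots, added after seeing the data, put the background far below 0 and also called fewer of all genes (8.72% rising and 4.30% falling at 2 Gy). It gave 5 rising and 1 falling at 2 Gy, 9 and 0 at 10 Gy, 14 rising with Si306 at 2 Gy, 12 rising and 15 falling with Si306 at 10 Gy, 2 higher and 1 lower by dose in PT alone, and 0 higher and 1 lower with Si306. The GC-content curve gave 12 falling at 10 Gy. Members lower at 10 Gy in PT alone numbered 4 with the scanner's log ratio, 4 with the deposited ratios and 4 without a filter on dim probes. Members higher at 10 Gy with Si306 numbered 1 without that filter, 6 with every scan as labelled, and 6 when the replicate block was added. Numbers did not pair samples, and with the block no other count over all members moved by over 1.5 times, while the H2A genes became 4 rising and 2 falling at 2 Gy and 8 rising at 10 Gy. Leaving out single arrays gave 15 to 20 rising and 6 to 11 falling at 2 Gy, 20 to 30 and 3 to 6 at 10 Gy, 23 to 30 and 17 to 21 with Si306 at 2 Gy, 18 to 22 and 25 to 28 with Si306 at 10 Gy, 9 to 13 higher and 2 to 6 lower by dose in PT alone, and 0 to 3 higher and 12 to 19 lower with Si306. The values that reversed are log2 fold changes. At 2 Gy, median centring gave 0.43 for HIST1H1E, 0.23 for HIST1H2BB, 0.092 for HIST1H3F, 0.24 for HIST1H4B, 0.26 for HIST1H4C and 0.27 for HIST1H4L, the separate-channel model -0.32 for HIST1H1C, 0.30 for HIST1H2BB, 0.95 for HIST1H4B, 0.99 for HIST1H4C and 1.03 for HIST1H4L, and the mean of all probes -0.064 for HIST2H2AB. At 10 Gy, median centring gave -0.20 for HIST1H1B, 0.27 for HIST1H2AE, 0.38 for HIST1H3G and 0.14 for HIST1H4F, and the separate-channel model -0.59 for HIST1H1A, -0.48 for HIST1H1B and 0.79 for HIST1H4F. With Si306 at 2 Gy, median centring gave 0.28 for HIST1H2AD, 0.37 for HIST1H2AH, 0.46 for HIST1H2AK, 0.59 for HIST1H2BK, 0.27 for HIST1H3G and -0.83 for HIST1H4E, and the separate-channel model -0.74 for HIST1H1D, 3.06 for HIST1H2AH, 2.54 for HIST1H2AK, 1.63 for HIST1H2BK and -1.32 for HIST1H4E. With Si306 at 10 Gy, median centring gave -0.29 for HIST1H1A and 0.013 for HIST1H1E, the separate-channel model -0.84 for HIST1H1A, 1.63 for HIST1H2BD and 0.22 for HIST1H4A, and leaving out probes that run against their gene 0.33 for HIST1H2BD. The cause was not tested. Genes near background in either dye carry the least certain values.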
